A study of Mus musculus with 12 samples.

Results

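The 8 complement genes described here, of 54232 genes in the count table, were followed across 12 mouse angiosarcoma tumors. They are defined by name, for their place in the cascade, and the rule has no threshold on a measured value, although earlier results of these data were known when they were picked. They comprise the C1 proteases C1ra and C1s1, the components C4b, C3 and Cfb, and the regulators Serping1, Cd55 and Cd59a. Of these, 7 passed the filter on low counts and were tested. Cd59a did not pass, so its counts are described only.

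The tumors grew from SVR cells, a mouse endothelial line that forms angiosarcomas. The cells were placed under the skin of athymic nude mice of 8 to 12 weeks, and the labels give the strain as C57BL/6. After tumors had established for 3 to 7 days, mice received vehicle (control), trametinib at 1 mg/kg, cediranib at 3 mg/kg, or both drugs at these doses (combination) by daily gavage. Trametinib inhibits the MAP kinase kinase MEK and cediranib inhibits the VEGF receptors, and 3 tumors per group were sequenced. Per the labels, gavage went on until a tumor ulcerated or passed 1 cm. The study also describes an experiment in which all tumors were taken at the same time, and which experiment gave these tumors is not stated. Time on treatment may thus differ between groups, and it cannot be told apart from the drug. RNA came from whole tumor lysate, and exome capture was chosen because much of the RNA was degraded. Host and tumor cells are both of mouse origin and were not separated. A lower value may therefore mean fewer cells of a type or less RNA per cell, and these cannot be told apart. The labels do not say whether the 3 tumors of a group came from separate cultures of SVR cells.

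Complement is a chain of plasma and membrane proteins that marks cells and debris for removal and can open pores in membranes. In the classical pathway, C1q binds a surface and activates the proteases C1r and C1s, which cleave C4 and C2, and in the lectin pathway the MASP proteases do this. The product cleaves C3, the component on which every route converges, while factor B (Cfb) forms the C3-cleaving enzyme of the alternative pathway. C1 inhibitor (Serping1) blocks C1r, C1s and the MASPs, CD55 takes apart the C3-cleaving enzymes, and CD59 blocks pore assembly. Most plasma complement is made in the liver, and fibroblasts, macrophages and endothelial cells also make components locally.

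The libraries held 9478865 to 11666094 counts, and values below are CPM, counts scaled to library size with TMM factors. Where a gene had 0 counts, its level could still be as high as 3 counts, equal to 0.251 to 0.349 CPM depending on the library, and this bound covers counting error only. A difference passed where edgeR's quasi-likelihood test gave a Benjamini-Hochberg FDR under 0.05 over the 12897 genes tested. Of 16 endothelial markers, the type of the SVR line, none was at 0 in every library, and their sum was 258 to 531 CPM in control, 118 to 180 after trametinib, 159 to 411 after cediranib and 80.9 to 145 after the combination. Markers of T cells, which nude mice largely lack, summed to 2.69 to 8.08 CPM, and only 1 of these 8 genes passed the filter on low counts. All hepatocyte markers together reached at most 0.545 CPM. Sums of 16 fibroblast markers ran from 2290 to 38500 CPM and keratin sums from 60.0 to 7160 CPM. Fits with the mean log2 CPM of the tested fibroblast, macrophage or epidermal markers as a covariate are called fits with that score below, and their values stand beside the results they move. The epidermal score was 2.96 to 3.54 in combination tumors, -0.39 to 1.40 in control and -1.21 to -1.09 after trametinib. These groups do not overlap in the score, so fits with it can hardly tell treatment from score.

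Several members have near copies that can take or split their reads, so their sequences are shown first. C4b lies on chromosome 17 (chr17:34728380-34743882, GRCm38, minus strand), beside C4a on the same strand. Over 5204 aligned bases of the C4b coding sequence and the C4a transcript, 96.1% were identical and 201 differed. The 50 bases with the most differences, 11, show where a read can tell the genes apart, with the differing bases in capitals.
C4b: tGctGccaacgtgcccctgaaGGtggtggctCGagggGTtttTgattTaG
C4a: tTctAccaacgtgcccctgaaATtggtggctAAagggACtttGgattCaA
C1ra lies on chromosome 6 (chr6:124512405-124523443, plus strand), and its coding sequence was identical to that of C1rb at 98.0% of 2118 bases. Their richest window of 50 bases held 8 differences, again in capitals.
C1ra: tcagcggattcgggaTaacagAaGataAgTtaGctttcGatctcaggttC
C1rb: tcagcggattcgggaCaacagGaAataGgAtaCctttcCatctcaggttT
Of all stretches of 50 bases in the transcripts of C1ra, 48.0% also occurred in C1rb. The shares were 34.6% for C4b in C4a, 21.8% for C1s1 in C1s2, 8.0% for Cd55 in Cd55b and 3.87% for Cd59a in Cd59b. In all 12 libraries together C1rb had 5 counts, C1s2 had 2, and Cd55b and Cd59b had 0 each. The sources used here do not say how reads with several positions were counted, so C1ra, C1s1 and C4b values are uncertain to that extent.

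**Figure D1:**
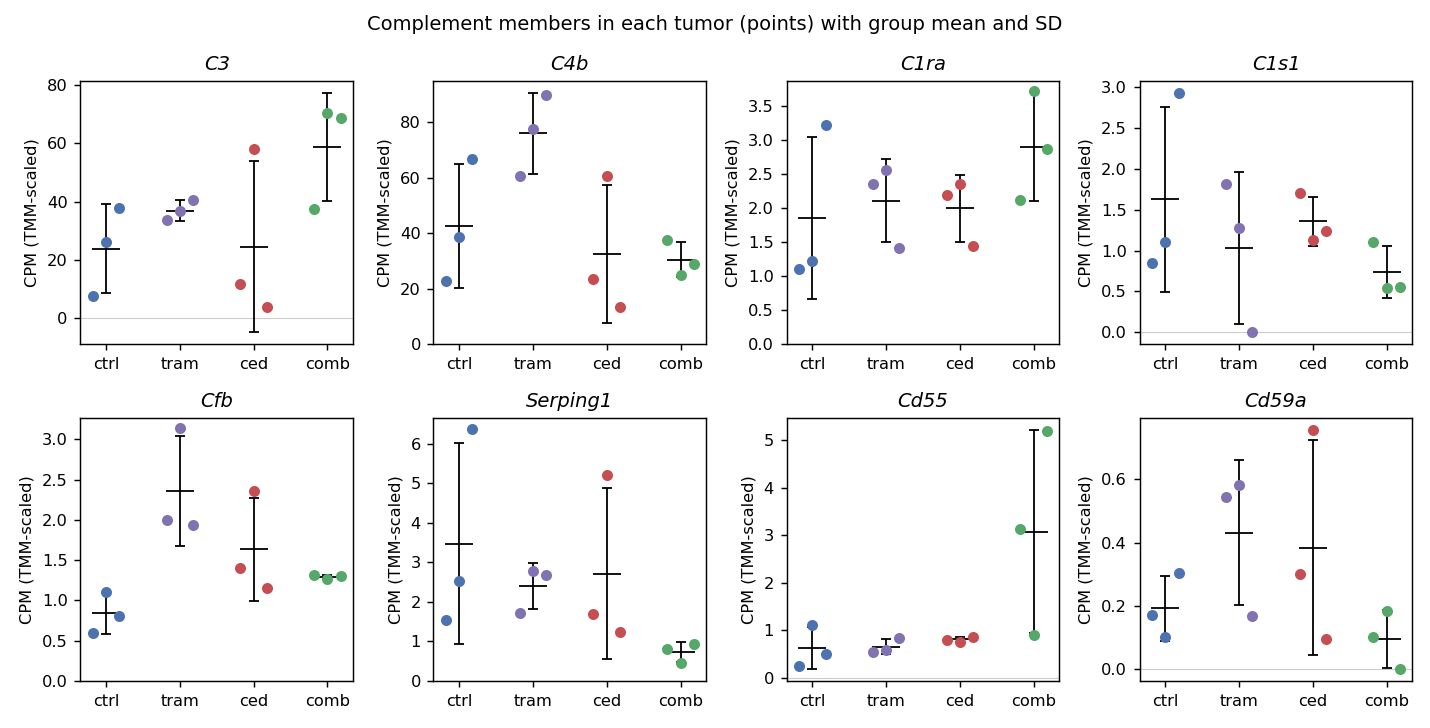
TMM-scaled CPM of the 8 complement genes (vertical axes, 1 panel per gene, separate scales) in control (ctrl), trametinib (tram), cediranib (ced) and combination (comb) tumors. Points are single tumors in replicate order, and the bar with whiskers is the group mean and SD of 3 tumors. The Cfb points of the trametinib group and the Serping1 points of the combination group lie apart from those of the control group, while 1 combination tumor lies among the controls for Cd55.

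C3 and C4b made up most of the counts of the 8 members, and the other 6 members held 5.11 to 25.9% of the members' counts in a tumor. The 8 members in turn held 25.4 to 55.7% of the counts of the 56 complement genes listed further below. Per kilobase of exon, C4b was the highest member in control (7.50 CPM per kb ± 3.92, SD, n = 3), trametinib (13.4 ± 2.58) and cediranib tumors (5.72 ± 4.37), with C3 next at 4.64 ± 2.96, 7.19 ± 0.681 and 4.79 ± 5.71. In the combination tumors C3 came first (11.4 ± 3.58) and C4b second (5.36 ± 1.13). The ranges of C3 and C4b do not overlap after trametinib or the combination, and they overlap in the other 2 groups. All other members were at or below 1.49 CPM per kb in every group. These levels depend on how well the capture probes cover each gene as well as on transcript number.

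Of the classical pathway proteases, C1ra gave 1.11, 1.22 and 3.23 CPM in the control tumors, 2.36, 2.56 and 1.42 after trametinib, 2.20, 2.36 and 1.44 after cediranib and 2.12, 3.72 and 2.88 after the combination. The groups overlapped in all 5 comparisons. The largest difference was combination against control, with a log2 fold change of 0.66 (SE 0.44) and an edgeR FDR of 0.365. C1s1, the protease that C1r activates, lies on chromosome 6 (chr6:124530345-124542359, minus strand). It had 10, 11 and 29 counts in control, 20, 11 and 0 after trametinib, 17, 12 and 13 after cediranib and 11, 6 and 6 after the combination. Every combination tumor was below every cediranib tumor (0.545 to 1.11 against 1.13 to 1.70 CPM), but the log2 difference of -0.88 (SE 0.86) had an edgeR FDR of 0.588. The 0 in trametinib replicate 3 stood in a library of 11666094 counts, where C1ra had 17. Neither protease passed in any comparison.

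C4b, cleaved by C1s to start the C3-cleaving enzyme, gave 22.7, 38.7 and 66.8 CPM in control and 60.6, 77.6 and 89.9 after trametinib. After cediranib it gave 23.6, 60.7 and 13.4 CPM, and after the combination 37.5, 24.9 and 29.1 CPM. The trametinib tumors were all above the combination tumors, and in the other comparisons the groups overlapped. The log2 fold change of combination against trametinib was -1.32 (SE 0.48, unadjusted p = 0.0179 and FDR 0.181 by edgeR), short of the threshold, and C4b passed nowhere else. With only those 2 groups in the fit it passed (-1.31, edgeR FDR 0.0146). Fibroblast marker sums also separated these groups, at 9370 to 38500 CPM after trametinib and 3790 to 6610 after the combination, as did epidermal sums, at 56.6 to 60.6 and 315 to 495 CPM. With the fibroblast score the C4b difference was -0.35 (edgeR FDR 0.817), with the macrophage score -0.71 (FDR 0.514) and with the epidermal score 1.26 (FDR 0.867). C4a, with 1 to 26 counts per library, differed by 1.68 (SE 0.70, edgeR FDR 0.235) in the same comparison.

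C3 lies on chromosome 17 (chr17:57203970-57228136, minus strand). It gave 7.58, 26.3 and 37.7 CPM in control and 33.6, 36.8 and 40.6 after trametinib. Cediranib tumors gave 11.8, 58.2 and 3.83 CPM and combination tumors 37.6, 70.3 and 68.7 CPM. Trametinib and combination tumors were all at 33.6 CPM or more, whereas control and cediranib tumors ranged from 3.83 to 58.2 CPM and overlapped with every other group. C3 was 2.48-fold higher in combination than in control tumors (log2 1.31, SE 0.75, edgeR FDR 0.286) and 2.39-fold higher than in cediranib tumors (log2 1.26, SE 0.75, FDR 0.344), neither of which passed. Without cediranib replicate 2, the highest cediranib tumor, the log2 difference from cediranib was 2.92 and passed. The 3 lowest tumors for C3 were control replicate 1 and cediranib replicates 1 and 3. The same 3 tumors had fibroblast marker sums of 2880, 4200 and 2290 CPM, the lowest of the 6 control and cediranib tumors, and keratin sums of 852, 5410 and 3780 CPM, the highest of those 6. Their part in the C3 values was not tested beyond a fit with a marker score: with the epidermal score as a covariate, C3 passed in combination against control (log2 4.41, edgeR FDR 0.0176) and against cediranib (3.33, FDR 0.00698). Control and combination tumors do not overlap in that score, so these passes cannot separate treatment from score. With the macrophage score the C3 differences from control and cediranib were 3.71 (FDR 0.0806) and 3.13 (FDR 0.0487), and with the fibroblast score 1.70 (FDR 0.0814) and 0.94 (FDR 0.343).

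The balance of C3 and C4b was looked at after their values had been seen. C3 counts per C4b count were 0.335, 0.678 and 0.564 in control, 0.554, 0.474 and 0.452 after trametinib and 0.500, 0.958 and 0.286 after cediranib. In the combination tumors they were 1.00, 2.82 and 2.36, so that each of these 3 lay above all 9 other tumors. The mean log2 ratio was higher in combination tumors by 1.90 against control, 1.94 against trametinib and 1.87 against cediranib. Each of these had p = 0.1 in a two-sided exact permutation test, the smallest that 3 against 3 allows, and 0.167 after Benjamini-Hochberg adjustment over 5 comparisons. The ratios after trametinib or cediranib alone differed from control by -0.04 and 0.03 (exact permutation p = 0.9 and 1). Keratin sums were 4930 to 7160 CPM in the combination tumors, and also 5410 and 3780 CPM in cediranib replicates 1 and 3, whose ratios were 0.500 and 0.286. The part of other cell types in the ratio was not tested. Leaving out 1 tumor at a time moved the 3 combination differences within 1.45 to 2.40. The members' share that was C3 was 44.9 to 68.7% in combination tumors and 16.5 to 44.2% in the other 9.

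**Figure D2:**
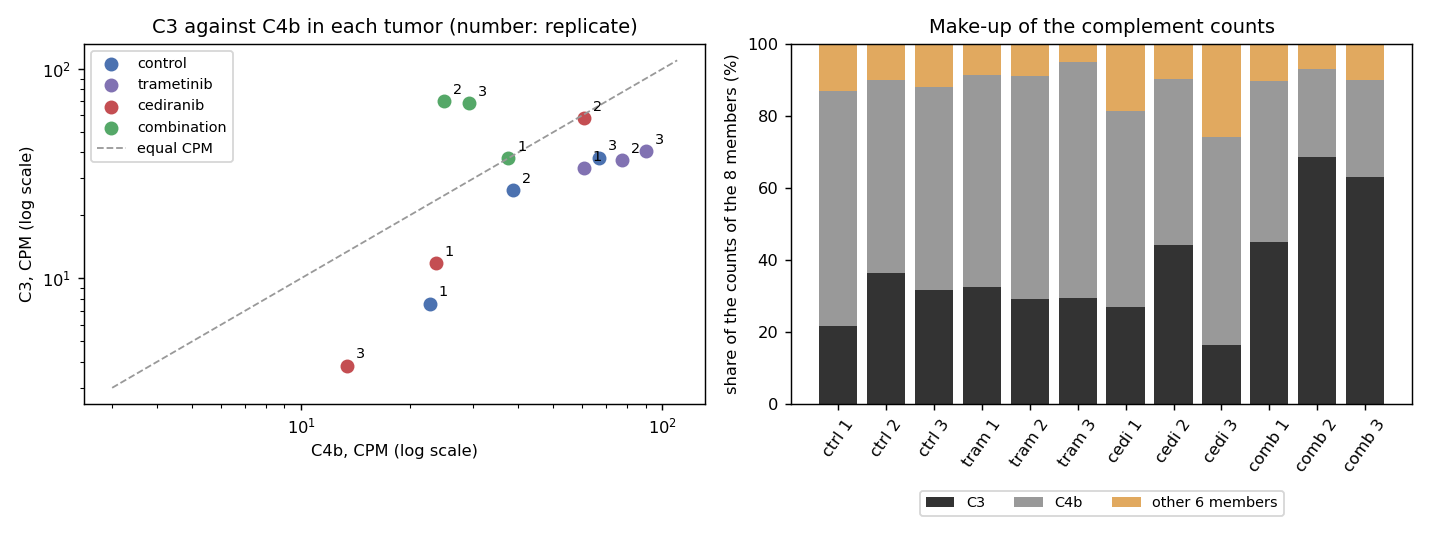
Left, C3 against C4b in CPM, both axes on a log scale, with 1 point per tumor numbered by replicate and a dashed line of equal CPM. Right, the share of the 8 members' counts that was C3, C4b or the other 6 genes, in percent, with 1 bar per tumor. Combination replicates 2 and 3 lie well above the line of equal CPM and replicate 1 lies on it, at a ratio of 1.00, while the other 9 tumors lie below it.

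Cfb, the protease of the alternative pathway, was higher after trametinib. It lies on chromosome 17 (chr17:34856374-34862518, minus strand) and had few counts: 7, 11 and 8 in control, 22, 27 and 23 after trametinib, 14, 25 and 12 after cediranib and 13, 14 and 14 after the combination. In CPM these were 0.596, 1.11 and 0.808 in control, 2.00, 3.14 and 1.93 after trametinib, 1.40, 2.36 and 1.15 after cediranib and 1.31, 1.27 and 1.30 after the combination. All treated tumors lay above all control tumors, and the combination tumors lay below the trametinib tumors. Cfb rose 2.78-fold in trametinib against control (log2 1.47, SE 0.40, edgeR FDR 0.0498), under the study's fold threshold of 1.5 on the log2 scale. It was the 1 member of 7 tested that passed there, beside 6.12% of all genes. Against control it differed by 0.96 after cediranib (SE 0.40, FDR 0.999) and by 0.63 after the combination (SE 0.41, FDR 0.353), and by -0.85 in combination against trametinib (SE 0.38, FDR 0.272), none of which passed edgeR's threshold. The pass for trametinib was lost without any 1 of the 6 tumors compared, controls and trametinib alike (FDR 0.0669 to 0.154). Epidermal marker sums were 56.6 to 60.6 CPM after trametinib and 75.9 to 144 in control, and fibroblast sums 9370 to 38500 and 2880 to 22400. The Cfb difference was 1.08 with the epidermal score (edgeR FDR 0.153), 1.08 with the fibroblast score (FDR 0.262) and 1.92 with the macrophage score (FDR 0.0203).

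Cfb shares most of its exons with another annotated gene. Gm20547, a readthrough of C2 and Cfb on the same strand, covers 79.5% of the exon bases of Cfb and 42.8% of those of C2, and it has no exon base outside these genes. It had 36 to 112 counts per library, more than Cfb in each. With the counts of Cfb and Gm20547 summed, the trametinib difference was 0.73 on the log2 scale (edgeR FDR 0.269) and no longer passed, and that of the combination against control was -0.31 (FDR 0.625). This sum can also take in reads from C2 exons, so it is not a value of Cfb alone. C2, the C4 partner in the classical C3-cleaving enzyme, differed by 0.22 (FDR 0.703) after trametinib.

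Serping1, the C1 inhibitor, lies on chromosome 2 (chr2:84765387-84775404, minus strand). It gave 1.53, 2.53 and 6.36 CPM in control and 1.72, 2.79 and 2.68 after trametinib. It gave 1.70, 5.20 and 1.24 CPM after cediranib, and 0.808, 0.454 and 0.928 after the combination. The 3 combination tumors were below all 9 others. The difference was -2.23 against control (SE 0.65), a 4.69-fold lower level, with an edgeR FDR of 0.0506 that misses the threshold. Against trametinib it was -1.70 (SE 0.66, FDR 0.205) and against cediranib -1.88 (SE 0.66, FDR 0.105). Without control replicate 1 the first of these passed (-2.59, FDR 0.0286). It also passed by DESeq2 (FDR 0.0127) and by edgeR's likelihood ratio test (FDR 0.0124). Endothelial marker sums were 80.9 to 145 CPM in the combination tumors and 118 to 180 after trametinib, against 159 to 411 after cediranib and 258 to 531 in control, with Emcn, Cldn5, Egfl7 and Mmrn2 each at 0 in at least 1 combination tumor, and macrophage sums were 186 to 326 CPM against 298 to 707 in the other groups, with Cx3cr1 at 0 in all 3. Fibroblast sums were 3790 to 6610 CPM with Mfap5 at 0 in all 3, a range inside that of the control tumors (2880 to 22400 CPM). The part of endothelial cells in the Serping1 values was not tested. The difference between combination and control was -1.92 with the fibroblast score (edgeR FDR 0.0143), -0.79 with the macrophage score (FDR 0.751) and -0.18 with the epidermal score (FDR 0.961).

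Cd55, which takes apart C3-cleaving enzymes on the cell surface, was higher after the combination. It lies on chromosome 1 (chr1:130439027-130462744, minus strand). Counts were 3 to 11 per tumor outside the combination group and 31, 10 and 56 in it. In CPM it gave 0.255, 1.11 and 0.505 in control, 0.545, 0.582 and 0.837 after trametinib, 0.799, 0.757 and 0.861 after cediranib and 3.13, 0.908 and 5.20 after the combination. Combination replicates 1 and 3 were above all other tumors, and replicate 2 was below control replicate 2. Cd55 rose 4.92-fold in combination against control (log2 2.30, SE 0.63, edgeR FDR 0.0398). It was the 1 member of 7 that passed there, beside 9.98% of all genes, and it also met the study's fold threshold, as 3.61% of genes did. Against trametinib the difference was 2.20 (SE 0.62, FDR 0.0985) and against cediranib 1.92 (SE 0.61, FDR 0.0794), with no overlap of the groups but no pass. Leaving out control replicate 1 or 3, or combination replicate 1 or 3, ended the pass against control, with edgeR FDR values of 0.0923, 0.13, 0.0857 and 0.155. Keratin sums were 4930 to 7160 CPM in the combination tumors, against 119 to 852 in control, and sums of 22 epidermal markers were 315 to 495 CPM with none at 0, against 75.9 to 144 in control with Dsg3 and Klk7 at 0 in all 3. With the epidermal score the Cd55 difference was 2.92 (edgeR FDR 0.323), with the macrophage score 1.98 (FDR 0.481) and with the fibroblast score 2.29 (FDR 0.0382). In cediranib replicates 1 and 3, where keratin sums were 5410 and 3780 CPM, Cd55 was at 0.799 and 0.861 CPM. The part of skin cells in the Cd55 values was not tested beyond the fit with the epidermal score.

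Cd59a, the inhibitor of pore assembly, lies on chromosome 2 (chr2:104095801-104115349, plus strand). It gave 0.170, 0.101 and 0.303 CPM in control and 0.545, 0.582 and 0.167 after trametinib. It gave 0.300, 0.757 and 0.0957 CPM after cediranib and 0.101, 0.182 and 0 after the combination. With 0 to 8 counts per tumor, differences between groups were not detectable at this depth.

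**Figure D3:**
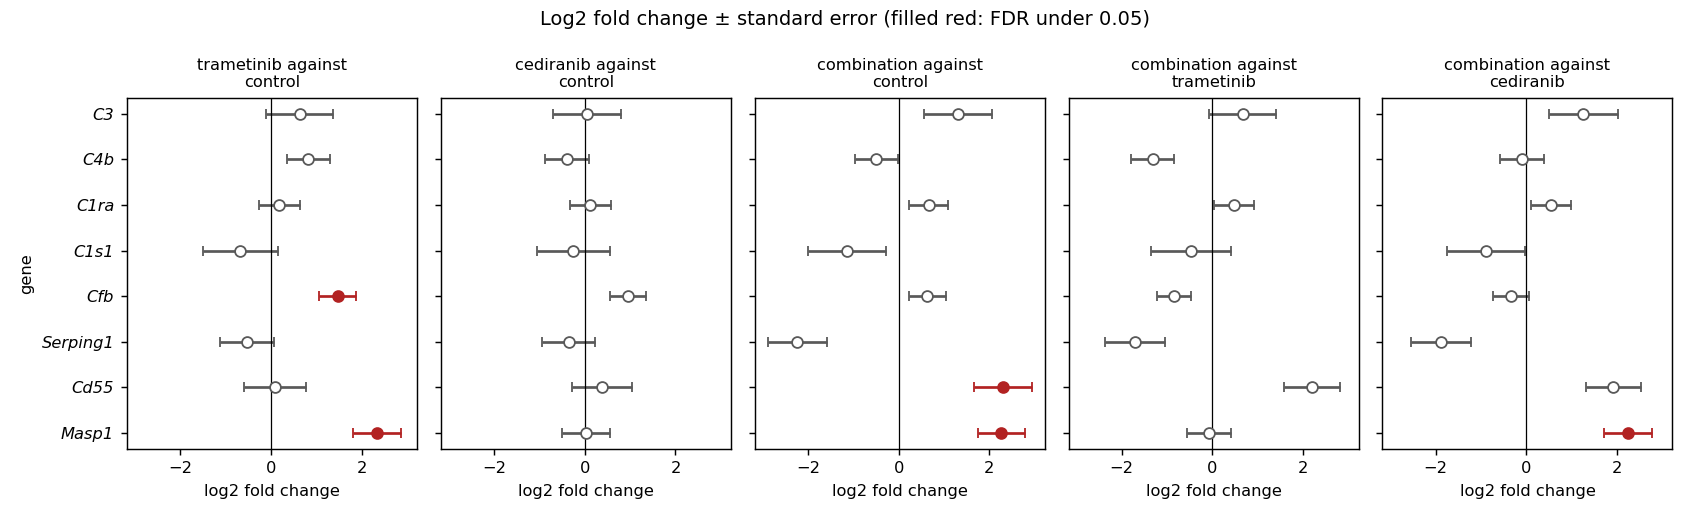
Log2 fold change (horizontal axes) with its standard error from edgeR for the 7 tested members and Masp1 (rows) in each of the 5 comparisons (panels). Filled red points passed an FDR of 0.05: Cfb and Masp1 after trametinib, Cd55 and Masp1 after the combination against control, and Masp1 in combination against cediranib.

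Set side by side, 1 of the 7 tested members passed in trametinib against control, 1 in combination against control and none in the other 3 comparisons. Over all genes 0% passed in cediranib against control (557 genes at an unadjusted p under 0.05, 12 passing by DESeq2 and 16 by edgeR's likelihood ratio test), 0.969% in combination against trametinib and 7.68% in combination against cediranib. In these 3, the members with an unadjusted p under 0.05 numbered 1, 4 and 2 of 7, beside 4.32%, 17.9% and 23.1% of all genes. By DESeq2 0, 1 and 0 members passed, and in the latter pair of comparisons 717 and 1526 of all genes did. By the likelihood ratio test 0, 1 and 1 members passed, beside 634 and 1281 of all genes in that pair. Of the 8 members, 1 had groups that did not overlap in trametinib against control, 1 in cediranib against control, 2 in combination against control, 4 against trametinib and 3 against cediranib. The shares of all genes tested were 25.8%, 7.76%, 31.3%, 24.2% and 28.4% in this order. The 4 in combination against trametinib were C4b, Cfb and Serping1, all lower in the combination, and Cd55, higher. Comparisons that share a group share its tumors. The interaction contrast, the change from trametinib to combination less that from control to cediranib, passed edgeR's threshold for 0 of 7 members and for 0% of all genes, and 1 member, Cfb, had an unadjusted p under 0.05.

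The other genes of the cascade were taken from a list of 56, all present in the table and 22 of them tested. By role, 5 of 8 genes that start the classical pathway, 3 of 9 of the lectin pathway and 6 of 7 central and alternative components had enough counts. Only 1 of 7 terminal components, 1 of 10 regulators in plasma, 2 of 7 membrane regulators and 4 of 8 receptors did. The tested genes included C1q chains, Masp1, Masp2, C2, C4a and the properdin gene Cfp, while for most pore-forming components and plasma regulators no difference between treatments could be tested. Masp1 was the 1 gene beyond the members that passed. It encodes a protease of the lectin pathway, and gave 3.58, 6.39 and 2.63 CPM in control, 32.9, 12.9 and 17.9 after trametinib, 5.30, 2.36 and 5.17 after cediranib and 14.2, 11.3 and 35.0 after the combination. All 6 tumors given trametinib were above all 6 others. Masp1 rose by 2.34 on the log2 scale in trametinib against control (SE 0.52, edgeR FDR 0.0201) and by 2.26 in combination against control (SE 0.52, FDR 0.0199). In combination against cediranib it rose by 2.24 (SE 0.52, FDR 0.0246). The pass was lost for trametinib without control replicate 1 or 3 or trametinib replicate 1 (FDR 0.0685 to 0.0852), for combination against control without control replicate 3 or combination replicate 3 (0.0849 and 0.0723), and against cediranib without any 1 cediranib tumor or combination replicate 3 (0.0554 to 0.0882). With the epidermal score Masp1 was at 2.62 after trametinib (edgeR FDR 0.028), 1.61 in combination against control (FDR 0.549) and 2.00 against cediranib (FDR 0.086). With the macrophage score none of the 3 passed (edgeR FDR 0.128, 0.573 and 0.129), at 1.05 in combination against control and 1.61 against cediranib. With the fibroblast score the 3 values were 2.39, 2.27 and 2.27 (FDR 0.0921, 0.0214 and 0.046). Macrophage sums were 411 to 707 CPM in control, 317 to 446 after trametinib, 298 to 462 after cediranib and 186 to 326 after the combination. No list gene passed as lower in any comparison.

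The list as a whole counted 2 of 22 tested genes higher in trametinib against control, 0 in cediranib against control, 2 in combination against control, 0 in combination against trametinib and 1 in combination against cediranib. Of all genes, 6.12%, 0%, 9.98%, 0.969% and 7.68% passed in either direction, in the same order. The list's median log2 fold changes were 0.16, 0.00, -0.37, -0.48 and -0.34 in this order, beside medians of all genes between -0.01 and 0.01. In combination against trametinib, 9 of the 22 had an unadjusted p under 0.05 in the lower direction and 2 in the higher, while 17.9% of all genes had such a p in either direction. Among them were the C1q chain genes C1qb (-1.79, SE 0.49, edgeR FDR 0.0927) and C1qc (-2.32, SE 0.81, FDR 0.165), and C3ar1, a receptor for a C3 fragment (-1.29, SE 0.49, FDR 0.200). C1qa differed by -1.44 (edgeR FDR 0.329) and the receptor gene Itgb2 by -0.77 (FDR 0.239). The remaining tested receptor genes, Itgam and Itgax, went the other way, at 0.32 (edgeR FDR 0.779) and 0.25 (FDR 0.881). C1q is made largely by macrophages, whose marker sums were 186 to 326 CPM in combination and 317 to 446 CPM in trametinib tumors, and the part of macrophages in these values was not tested. C1qc rested on 7 counts over the 3 combination tumors and 35 over the 3 trametinib tumors.

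**Figure D4:**
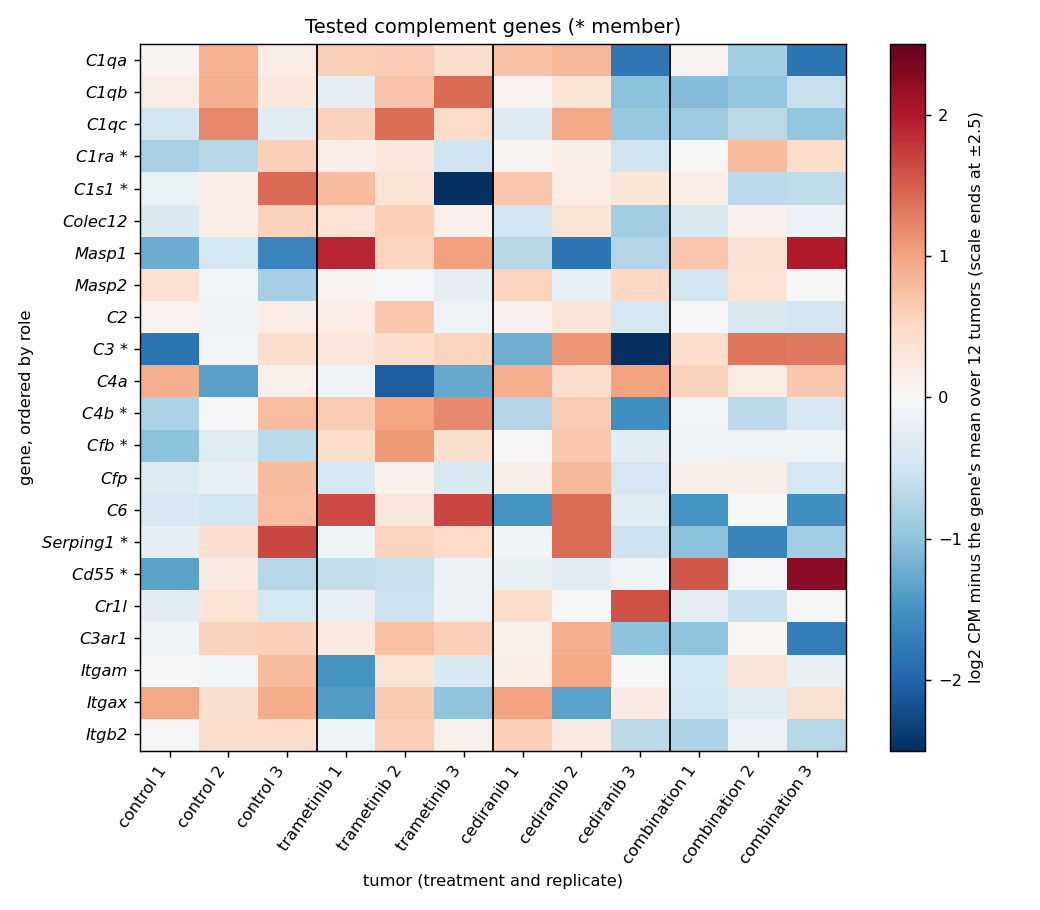
Log2 CPM of the 22 tested complement genes (rows, ordered by role, members marked with *) in the 12 tumors (columns), less each gene's mean over the tumors, from blue (lower) to red (higher). The 6 tumors given trametinib are above the Masp1 mean, combination replicates 1 and 3 stand out in red for Cd55, and the combination tumors are blue for Serping1.

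For 6 of the tested members, the genes with the nearest patterns were found by the root mean square difference of centred log2 CPM over the 12 tumors. Serping1 lay nearest to Igfbp7 (0.22), a secreted IGF-binding protein, and then to Gpx7 (0.34), against a median of 0.99 over all genes. Igfbp7 averaged 55.4 CPM in control, 41.6 after trametinib, 38.7 after cediranib and 14.7 after the combination. C4b lay nearest to Selenop (0.29), a secreted selenium carrier, and Gm30489 (0.33; median 0.88), and C3 to Abcd2 (0.59) and Mir6950 (0.64; median 1.29). The nearest to C1ra were Chl1 (0.28) and Hal (0.32; median 0.60), to C1s1 Gpr153 and Slco5a1 (0.51 each; median 1.02) and to Cfb Sco1 (0.29) and Depdc1a (0.30; median 0.65). The centred values of Cfb and C1ra ranged over only 2.08 and 1.59 on the log2 scale, so small differences are common there.

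Promoters were read because the group means of C3 and Cd55 were highest in the combination and that of Serping1 lowest. Of these differences only that of Cd55 against control passed. RefSeq windows of 250 bases before the start were held for 5 of the 8 members, and those of C4b, Cfb and Serping1 were not used here. The windows of C3 and Cd55 follow, from GRCm38.p6 on the minus strand, at chr17:57228137-57228386 and chr1:130462745-130462994, in lower case with no capitals because no searched motif was found in them.
C3: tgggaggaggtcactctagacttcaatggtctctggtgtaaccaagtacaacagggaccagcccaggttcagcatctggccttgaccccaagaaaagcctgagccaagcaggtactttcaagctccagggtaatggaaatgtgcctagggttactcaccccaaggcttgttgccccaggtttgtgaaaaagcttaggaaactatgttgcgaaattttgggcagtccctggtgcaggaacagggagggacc
Cd55: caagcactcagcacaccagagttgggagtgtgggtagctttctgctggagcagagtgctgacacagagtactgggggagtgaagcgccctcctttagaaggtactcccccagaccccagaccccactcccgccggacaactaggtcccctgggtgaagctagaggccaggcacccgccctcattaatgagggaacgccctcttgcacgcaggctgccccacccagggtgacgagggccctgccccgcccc
The motifs searched on both strands were the gamma-activated sequence TTCNNNGAA, held by 7.02% of 32851 promoter windows of this length, the core GAAANNGAA of the interferon-stimulated element (7.13%), the AP-1 motif TGANTCA (6.75%) and the kappa B motif GGANTTTCC (1.07%). Of the members' 6 windows only that of Cd59a held one, the interferon-stimulated core at position -187. These letters describe the windows and say nothing about which factors act there.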

How the data were processed

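RNA from 12 SVR tumors, 3 per treatment, was sequenced after exome capture. The authors aligned reads to GRCm38 with STAR 2.7.1a in 2-pass mode and obtained gene counts with featureCounts 1.6.0, and the deposited values are these raw counts. Reads had been demultiplexed with bcl2fastq (version 1.8.4 per the labels). The sources used here give neither the annotation release nor the strand setting nor the handling of multi-mapped reads. Groups came from the treatment labels, and 0 columns belonged to no sample.

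Of 54232 genes, 12897 passed filterByExpr (minimum count 10, minimum total 15). Counts were scaled by TMM (factors 0.908 to 1.10) and fitted with the quasi-likelihood test of edgeR 4.0.16 (R 4.3.3), the 12 libraries sharing 1 fit (biological coefficient of variation 27.2%). A pass was an FDR under 0.05 and the study's own fold threshold was 1.5 on the log2 scale. Log2 CPM used a prior count of 2. Gene lengths were those of the deposited table. Sequences came from GENCODE M21 transcripts (near copies) and RefSeq (promoters). The text names the 8 members, their near copies, list genes that passed in any of 5 comparisons, and the 2 genes of nearest pattern per tested member, which for Cd55 are not reported here. C1qa, C1qb, C1qc, C3ar1, Itgam, Itgax, Itgb2, C2 and Gm20547 were named after their values were seen. The members and lists were chosen with earlier results of these data known. P-values measure the spread between these tumors. No pair of replicates was identical or agreed within sampling noise. Alternatives were library totals, DESeq2 1.42.0 and its size factors, the likelihood ratio test, no filter, a replicate block, marker scores as covariates, fits of only the groups compared and leaving out each tumor.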

Additional observations from a re-analysis of the deposited data

Results flagged for a closer look

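The effect of cediranib on Cfb was flagged because it went in opposite directions without and with trametinib: all 3 cediranib tumors were above all 3 controls, and all 3 combination tumors were below all 3 trametinib tumors. The interaction was -1.81 on the log2 scale (SE 0.56, unadjusted p = 0.00686), and with an edgeR FDR of 0.635 it did not pass. Over all genes the interaction passed for 0 and reached an unadjusted p under 0.05 for 909, while 37 passed by DESeq2, 28 by the likelihood ratio test and 373 without the low-count filter. With Gm20547 counts added to those of Cfb the interaction was -1.32 (SE 0.50, edgeR FDR 0.682). Cediranib against control was then 0.28 (edgeR FDR 0.999). The summed cediranib tumors overlapped the controls, at 8.39, 11.2 and 4.88 against 5.54, 5.78 and 8.89 CPM. The combination tumors stayed below the trametinib tumors. For Cfb alone the interaction was -0.93 with the epidermal, -1.61 with the fibroblast and -1.75 with the macrophage score (edgeR FDR 0.86, 0.643 and 0.491).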

How the results depend on the processing

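Under every alternative 0 members passed in cediranib against control and in the interaction. In trametinib against control the 1 member that passed became 0 with DESeq2 size factors, with the epidermal or fibroblast score as a covariate and with only the groups compared, and 2 without the low-count filter (C3 and C4b, not Cfb). In combination against control the 1 became 3 without the filter, 2 by DESeq2, by the likelihood ratio test or with the fibroblast score, and 0 with the macrophage score or only the groups compared. In combination against trametinib the 0 became 4 without the filter and 1 by DESeq2, the likelihood ratio test or with only the groups compared. In combination against cediranib the 0 became 3 without the filter and 1 by the likelihood ratio test or with the epidermal, fibroblast or macrophage score. Dropping the filter also changed the spread estimates. In combination against trametinib the SE fell from 0.74 to 0.20 for C3 and from 0.48 to 0.19 for C4b. For Cfb it rose from 0.38 to 0.52. The cause of these changes was not tested. Leaving out 1 tumor at a time gave 0 to 0 members in trametinib against control and 0 to 1 in combination against control and against cediranib.

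Same-numbered tumors did not pair: the correlations of their deviations ran from -0.22 to 0.36, and 4 of 12 libraries lay nearest to their own number. With the number as a replicate block, the count in combination against control went from 1 to 0 (Cd55 2.19, FDR 0.0697 by edgeR), C3 in cediranib against control turned to -0.11, C4b in combination against cediranib to 0.01, and Masp1 to -0.10 in cediranib against control and 0.01 in the interaction.

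Of differences that had not passed, these turned sign. In trametinib against control, C3, C1ra and Cd55 turned to -0.42, -0.02 and -0.14 with the epidermal score and to -0.49, -0.39 and -0.38 with the fibroblast score, and Serping1 and Cd55 to 0.24 and -0.07 with the macrophage score. In cediranib against control, C4b, Serping1 and Masp1 turned to 0.40, 0.52 and -0.39 (epidermal), C4b, C1s1, Serping1 and Masp1 to 0.17, 0.51, 0.49 and 0.00 (fibroblast), and C4b, Serping1 and Masp1 to 0.02, 0.11 and -0.56 (macrophage). In combination against control, C4b turned to 1.36 (epidermal) and 0.89 (macrophage), and Cfb to -0.31 with Gm20547 added. In combination against trametinib, C4b, Cfb and Serping1 turned to 1.26, 0.47 and 1.14 (epidermal), C1s1 to 0.54 (fibroblast) and Masp1 to 0.05 with library totals. In combination against cediranib, C4b turned to 0.04 with library totals, C4b and Cfb to 0.97 and 0.15 (epidermal) and to 0.87 and 0.17 (macrophage). In the interaction, C4b and Serping1 turned to 0.86 and 0.62 (epidermal), C1s1 to 0.02 (fibroblast) and Masp1 to 0.00 (macrophage and library totals).

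Leaving out 1 tumor at a time turned the sign of these differences (lowest to highest value): in trametinib against control, C1ra (-0.08 to 0.85), C1s1 (-1.43 to 0.05), Serping1 (-0.89 to 0.24) and Cd55 (-0.29 to 0.80). In cediranib against control these were C3 (-1.61 to 0.55), C4b (-1.21 to 0.09), C1ra (-0.15 to 0.78), C1s1 (-0.57 to 0.47), Serping1 (-1.23 to 0.42), Cd55 (-0.01 to 1.08) and Masp1 (-0.21 to 0.45). In combination against trametinib these were C1s1 (-1.07 to 0.30) and Masp1 (-0.74 to 0.38), and against cediranib C4b (-0.46 to 0.72) and Cfb (-0.53 to 0.02). In the interaction these were C1ra (-0.31 to 0.62), C1s1 (-0.93 to 0.56) and Masp1 (-0.76 to 0.36). Library totals moved the median of all genes by up to 0.13 in the combination contrasts. Over all genes, passes ranged from 467 to 1690 in trametinib against control (789 as reported), 0 to 489 in cediranib against control (0), 71 to 2390 in combination against control (1287), 0 to 1411 against trametinib (125) and 455 to 1722 against cediranib (991), the highest each time without the low-count filter.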
